A study of Mus musculus with 2 samples.

Results

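Nuclear pore and nuclear transport genes were described in regulatory T (Treg) cells sorted from the spleen of mice with acute myeloid leukemia and of healthy mice. Members were set by a rule on symbols: every listed gene named as a numbered nucleoporin (Nup), importin (Ipo, Kpna, Kpnb), transportin (Tnpo) or exportin (Xpo, with Xpot), pseudogenes left out. The rule was chosen with earlier results of these data known. This gave 42 genes of 23248 listed in either library, 20 nucleoporins and 22 transport receptors. All 42 carried a symbol through their NCBI Gene ID. Further pore and transport genes without these names, such as Ran and Ndc1, were read from a separate list. The nucleoporins Nup58 and Nup42 stand as Nupl1 and Nupl2 in the symbol table and so fell outside the rule.

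All mice carried the Foxp3tm3(DTR/GFP)Ayr reporter allele on a B6.129(Cg) background, which puts a diphtheria toxin receptor and green fluorescent protein under control of Foxp3, and were 6 to 8 weeks old. The leukemia group received 800000 leukemia cells without irradiation and was sorted at day 18, in a model with a survival of 30 to 40 days. The healthy group received phosphate-buffered saline, and in both groups CD4+FOXP3-GFP+ cells were sorted. Each group was 1 RNA sequencing library, so no difference below has a replicate check and none was tested between conditions. No label says whether a library pooled several mice.

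The nuclear pore is a ring-shaped channel through the nuclear envelope, built from a scaffold of Y complexes and an inner ring, a channel lined with nucleoporins rich in phenylalanine-glycine repeats, filaments on the cytoplasmic face and a basket on the nuclear face. Importins and exportins carry proteins and RNAs through it, and the small GTPase Ran, loaded with GTP inside the nucleus, sets the direction of cargo release. In T cells, transcription factors such as NFAT and NF-kappaB enter the nucleus through this route after activation. Pores are also taken apart and rebuilt in mitosis, and new ones are made before division.

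The healthy library held 8929601 and the leukemia library 8897162 estimated reads. Members took 0.340% and 0.384% of them, with a median of 494 and 614 reads per member. Transcripts of the sorted cells were present: the 7 Treg markers, Foxp3 and Cd4 among them, summed to 1170 FPKM (fragments per kilobase of transcript and per 1000000 fragments) in healthy mice and 818 FPKM with leukemia. Transcripts typical of other cell types were present as well. Myeloid progenitor and granule genes were all at least 2-fold higher in leukemia (12 of 12, against 6.55% of all genes at 1 FPKM or more). They summed to 14.1 and 1309 FPKM, with Ms4a3 and Cebpe at 0 reads in the healthy library. Macrophage markers summed to 857 and 423 FPKM (0 of 8 higher, 4 of 8 at least 2-fold lower, against 1.95% of all genes). The 2 CD8 T cell markers summed to 15.9 and 13.4 FPKM. Of B cell markers 2 of 5 reached 1 FPKM (summed 14.4 and 25.4 FPKM), and of erythroid markers 3 of 5 (91.6 and 79.0 FPKM). Mitotic genes summed to 162 and 460 FPKM (20 of 24 at least 2-fold higher, against 6.55% of all genes). DNA replication genes summed to 519 and 1199 FPKM (22 of 28 at that fold). Which cells these transcripts came from cannot be told from 1 bulk library per group. The part of other cells and of cell division in the differences below was not tested. In bulk RNA, fewer cells of a type and less RNA per cell cannot be told apart.

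As a whole the members differed little between the libraries. Of the 42, 41 reached 1 FPKM, all 41 in both libraries, and their summed level was 732 FPKM in healthy mice against 853 FPKM with leukemia. Differences are given as log2((FPKM leukemia + 1) / (FPKM healthy + 1)), the log2 ratio, which understates the difference of low genes. The median log2 ratio of the 41 was 0.14, against 0.02 for all 13717 genes at 1 FPKM or more. With a fold taken as a mark of size, with no test behind it, 1 member was at least 2-fold higher in leukemia (2.44%), below the 6.55% of all genes past that fold, and none was 2-fold lower (1.95% of all genes). At 1.5-fold, 8 members were higher (19.5%, against 13.7% of all genes) and none lower (6.37% of all genes). A log2 ratio above 0 was held by 30 of 41 members (73.2%), against 52.8% of all genes. With FPKM rescaled to a common total (TPM) that count was 25, against 45.9% of all genes.

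For each gene, an exact 95% interval of the read ratio (leukemia over healthy, each per library total) covers counting error only and compares 2 libraries. It lay above 1 for 16 members (39.0%, against 29.0% of all genes) and below 1 for 4 (9.76%, against 23.5%). The other 21 spanned 1, so no difference of theirs was detectable at this depth. The 8 genes at 1.5-fold or more were the pore scaffold genes Nup43, Nup85, Nup133, Nup93 and Nup155, the channel gene Nup62 and the import receptor genes Kpna2 and Ipo7. Ipo5, at 1.52 times the FPKM, fell just short once 1 FPKM was added to both values. Levels of every member are drawn by place and role.

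**Figure D1:**
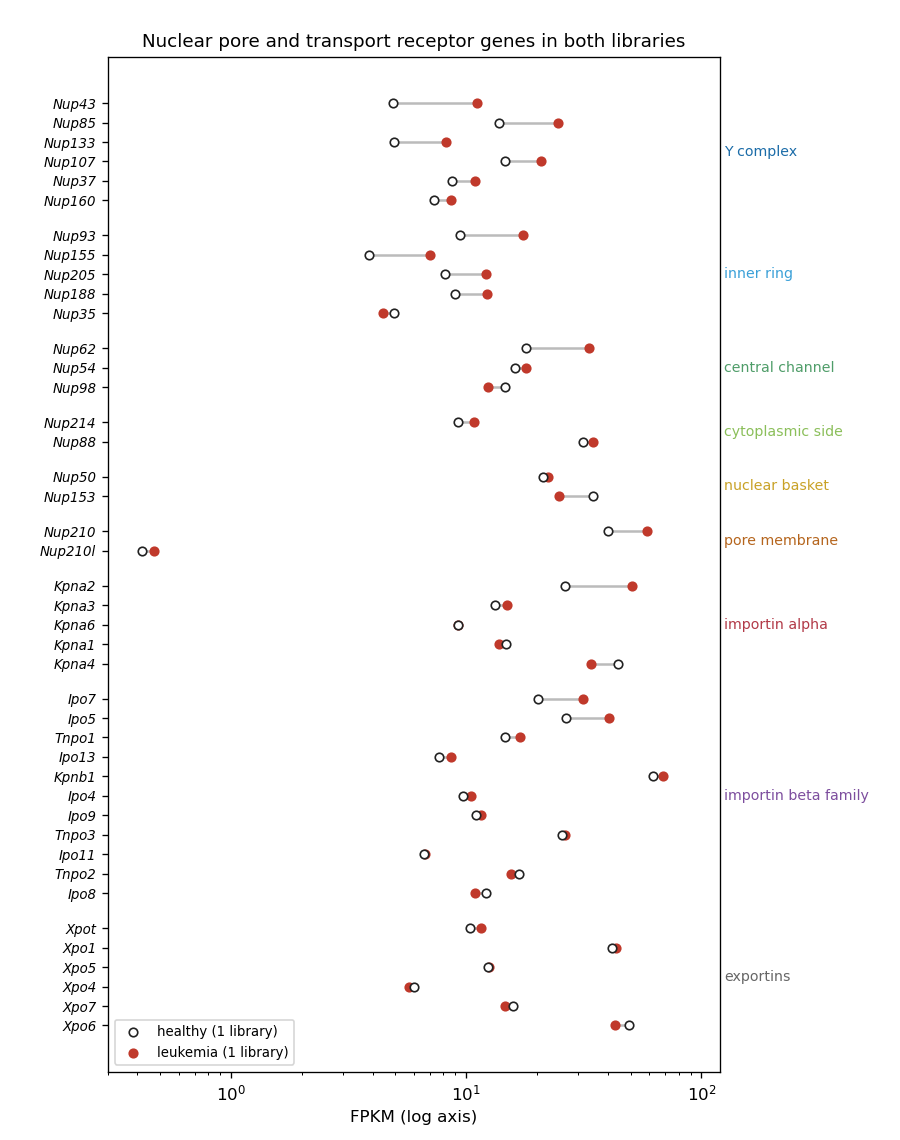
FPKM (log axis) of the 42 member genes in the healthy library (open points) and the leukemia library (red points), 1 library each, grouped by place in the pore or role and ordered within each group by log2 ratio. Most scaffold genes lie to the right in leukemia, such as Nup43 at 4.90 and 11.15 FPKM, while most exportin points nearly coincide.

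The stretches before the RefSeq start sites of Kpna2, Nup62 and Ipo7 are shown with their motif content (RefSeq, GRCm38.p6, matched by Gene ID). The printed Ipo7 stretch is shorter and ends at base 51 before the start. These genes, a channel gene and both receptor genes past 1.5-fold, were chosen after their values were seen. Capitals mark matches on either strand to CCAAT (the NF-Y box), CGCATGCG (the core of the NRF1 motif), CACGTG (an E-box, bound by Myc and Max among others) and TTTGAA (the cell cycle homology region, CHR).
Kpna2, chr11:106999526-106999775, minus strand, bases 250 to 1 before the start: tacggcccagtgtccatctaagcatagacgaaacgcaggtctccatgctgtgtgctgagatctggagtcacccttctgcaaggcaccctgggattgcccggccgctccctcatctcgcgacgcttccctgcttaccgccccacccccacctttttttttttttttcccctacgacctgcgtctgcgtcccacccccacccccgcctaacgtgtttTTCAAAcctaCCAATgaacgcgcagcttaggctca
Nup62, chr7:44815838-44816087, plus strand, bases 250 to 1 before the start: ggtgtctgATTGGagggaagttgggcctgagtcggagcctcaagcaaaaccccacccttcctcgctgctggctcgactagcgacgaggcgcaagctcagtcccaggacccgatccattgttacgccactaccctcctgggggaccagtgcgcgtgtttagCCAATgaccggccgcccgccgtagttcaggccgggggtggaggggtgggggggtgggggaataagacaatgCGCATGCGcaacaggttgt
Ipo7, chr7:110018065-110018264, plus strand, bases 250 to 51 before the start: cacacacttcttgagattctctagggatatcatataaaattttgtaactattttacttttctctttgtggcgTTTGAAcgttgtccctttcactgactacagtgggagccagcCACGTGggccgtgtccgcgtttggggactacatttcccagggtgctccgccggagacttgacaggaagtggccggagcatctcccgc

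The Kpna2 window held a CHR at bases 35 to 30 and a CCAAT at bases 25 to 21 before the start. Nup62 had a CCAAT on each strand and the NRF1 core at bases 19 to 12. Ipo7 had an E-box at bases 137 to 132 and a CHR at bases 178 to 173. The bases nearest the Ipo7 start, not printed above, were searched as well and held no further match to the capitalized motifs. Promoter windows were at hand for 33 of the 42 members (40 windows, since 7 genes have more than 1), and for 6 of the 8 genes at 1.5-fold or more. Over windows of 250 bases before the start, both strands, CCAAT was in 47.5% of member windows, against 33.8% of all 32851 windows and 35.4% of those of protein-coding genes. Counted by gene rather than by window, it was in 4 of those 6 genes at 1.5-fold and in 17 of the 33 members. No share over all genes was counted by gene, so these counts have no background beside them. CGCATGCG was in 4 member windows (10.0%, against 1.55% of all and 2.06% of protein-coding windows), those of Nup107, Nup50, Nup62 and Xpo5. CACGTG was in 6 (15%, against 6.02% of all and 6.63% of protein-coding windows), TTTGAA in 7 (17.5%, against 16.0% and 14.5%) and the E2F motif GGCGGGAA in 1, that of Nup210 (2.50%, against 1.86% and 2.47%). The GC box GGGCGG, not capitalized above, was in 25 windows (62.5%, against 32.7% and 42.6%). By gene it was in 5 of the 6 genes at 1.5-fold and in 23 of the 33 members. Of the same 6 genes, CACGTG and TTTGAA were each in 2, CGCATGCG in 1 and GGCGGGAA in 0. Single bases may belong to both GGGCGG and GGCGGGAA. These are matches of letters, not sites shown to be bound.

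All 6 members of the Y complex, which coats the membrane on both faces of the pore, had a log2 ratio above 0 (against 52.8% of all genes). Their median log2 ratio was 0.56 and they summed to 54.3 and 84.1 FPKM. Nup43, a small beta-propeller subunit of the Y complex, stood at 4.90 FPKM in the healthy library against 11.15 FPKM in leukemia (56 and 127 reads). Its log2 ratio of 1.04 was the highest of any member and its read ratio was 2.28 (95% interval 1.65 to 3.18). It was the 1 member past 2-fold, and scaling by the upper quartile, chosen after seeing the data, put it at 0.97. Nup85, which sits with Nup43 in a short arm of the Y, was at 13.84 and 24.45 FPKM, a read ratio of 1.75 (1.5 to 2.04). Nup133, at the tip of the stem, was at 4.91 and 8.21 FPKM (log2 ratio 0.64). Its reads differed less than its FPKM, with a read ratio of 1.5 (1.25 to 1.81), since the gene length that RSEM assigned was 10.2% shorter in leukemia. Nup107, its partner in the stem, was at 14.6 and 20.8 FPKM, a read ratio of 1.43 (1.26 to 1.63).

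The remaining Y complex members were closer to even. Nup37 and Nup160, which form the other arm, were at 8.74 and 10.85 FPKM and at 7.32 and 8.66 FPKM, and both read ratio intervals spanned 1 (0.977 to 1.70 and 0.962 to 1.30). Proteins of this complex are present in equal numbers in the assembled pore, but their transcripts differed in level, from 4.90 FPKM for Nup43 to 14.6 FPKM for Nup107 in healthy cells. Among the partners of the complex from the separate list, Sec13, which also coats vesicles, was at 52.2 and 71.8 FPKM, Seh1l at 12.8 and 14.3 FPKM, and Ahctf1 (ELYS), which starts pore assembly on chromatin, at 14.1 and 11.7 FPKM. The partners thus did not all lie on the side of the 6 members: the log2 ratio was 0.45 for Sec13 and 0.15 for Seh1l, but -0.25 for Ahctf1.

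The inner ring, which lines the membrane bend and anchors the channel proteins, was higher in 4 of 5 members (against 52.8% of all genes). Its median log2 ratio was 0.53. Nup93, the scaffold subunit that holds the channel nucleoporins, was at 9.42 and 17.4 FPKM, a read ratio of 1.83 (1.56 to 2.16). Nup155, which links the ring to the membrane, was at 3.86 and 7.02 FPKM, a read ratio of 1.88 (1.59 to 2.23). The large paralogs Nup205 and Nup188 were at 8.09 and 12.1 FPKM and at 8.93 and 12.3 FPKM, with read ratios of 1.5 (1.33 to 1.69) and 1.38 (1.22 to 1.56). Nup35, a membrane-binding subunit, was the exception, at 4.93 and 4.45 FPKM with an interval of 0.691 to 1.18. Together the 11 Y complex and inner ring genes summed to 89.6 and 137 FPKM, 1.53 times as much in leukemia (1.05 times for all genes at 1 FPKM or more). Of the 11, 5 were past 1.5-fold (against 13.7% of all genes). The 11 leave out Sec13, Seh1l, Ahctf1 and Nup98, which also encode Y complex proteins, with read ratios of 1.38, 1.10, 0.832 and 0.855. For the 8 nucleoporins at 1 FPKM or more outside the 11 the summed ratio was 1.16, and for the 22 receptors 1.10. These gene groups were not tested against each other.

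Channel, filament and basket nucleoporins went both ways. Nup62, the central repeat protein of the channel, was at 17.94 and 33.25 FPKM, a log2 ratio of 0.85 and a read ratio of 1.85 (1.64 to 2.10). Its channel partner Nup54 was at 16.05 and 17.96 FPKM (read ratio interval 0.964 to 1.30). The third protein of that trimer, Nup58 (Nupl1, outside the rule), was at 16.0 and 13.3 FPKM, a read ratio of 0.830 (0.707 to 0.973). Genes of this trimer, near 16 to 18 FPKM each in the healthy library, therefore lay apart in the leukemia library. Nup98, whose transcript also encodes the Y complex protein Nup96, was at 14.6 and 12.3 FPKM, a read ratio of 0.855 (0.771 to 0.947), below all 6 members counted under the Y complex.

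On the cytoplasmic face, Nup88 was at 31.5 and 34.5 FPKM and its partner Nup214 at 9.20 and 10.8 FPKM, and only the interval of Nup214 left out 1 (1.02 to 1.29). Nup42 (Nupl2, outside the rule), which helps release messenger RNA there, was at 2.13 and 3.33 FPKM, a read ratio of 1.56 (1.10 to 2.22) on 55.8 and 87 reads. In the basket, Nup153, an anchor for import and messenger RNA export, had the lowest log2 ratio of any member, -0.46. It was at 34.6 FPKM in healthy mice against 24.85 FPKM with leukemia, a read ratio of 0.719 (0.670 to 0.772) on 1885 and 1351 reads. Nup50, which binds Nup153 and speeds cargo release, was at 21.1 and 22.4 FPKM. Tpr, the basket filament from the separate list, was at 54.6 and 49.2 FPKM, a log2 ratio of -0.15.

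The membrane nucleoporin Nup210, known in T cells for roles in their survival and signalling, had the highest FPKM of the 20 members named Nup in both libraries. It was at 40.3 and 58.8 FPKM on 2563 and 3742 reads, a log2 ratio of 0.54 and a read ratio of 1.47 (1.39 to 1.54). Its paralog Nup210l was the 1 member under 1 FPKM, at 0.42 and 0.47 FPKM on 22.4 and 26.5 reads. The other membrane proteins of the pore come from the separate list: Ndc1 was at 2.65 and 6.16 FPKM (read ratio 2.29, 1.81 to 2.92) and Pom121 at 15.01 and 16.55 FPKM. Ndc1 and Nup210 were thus both higher, while the interval of Pom121 spanned 1 (0.992 to 1.22). The log2 ratio of Ndc1 was 0.97 with 1 FPKM added and 1.19 with 0.1 FPKM added, so its place under or over 2-fold depends on that setting.

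**Figure D2:**
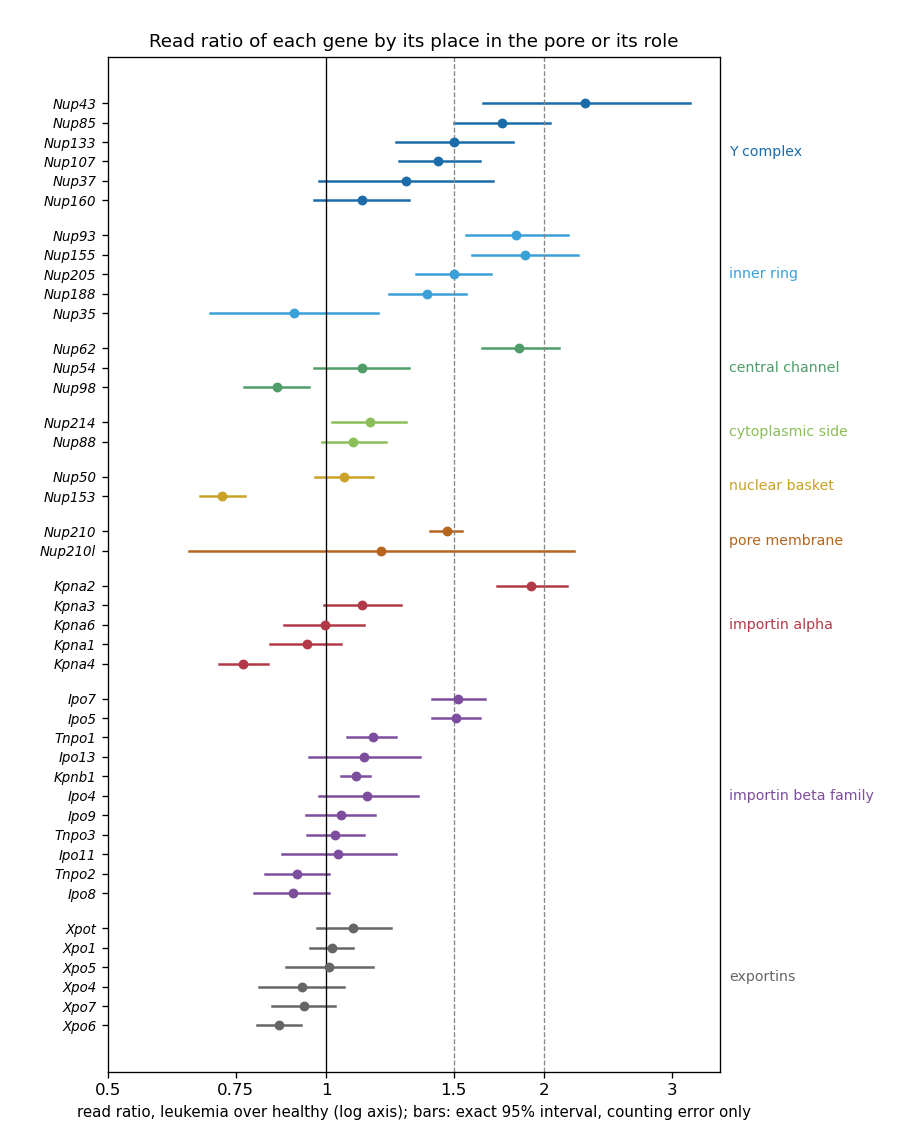
Read ratio of each member, leukemia over healthy, on a log axis, with exact 95% intervals that cover counting error only; the solid line marks 1 and the dashed lines 1.5 and 2. The intervals of Nup153, Nup98, Kpna4 and Xpo6 lie below 1, and Nup43 and Kpna2 have the highest ratios of a nucleoporin and of a receptor, 2.28 and 1.92.

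Among the importin alpha adaptors, which bind classical nuclear localization signals and pair with importin beta, the members changed places. Kpna2, the adaptor tied to dividing and undifferentiated cells, was at 26.4 FPKM in healthy mice against 50.7 FPKM with leukemia on 489 and 937 reads. Its log2 ratio was 0.92 and its read ratio 1.92 (1.72 to 2.15). Kpna4, an adaptor used by NF-kappaB among others, was at 44.2 and 34.0 FPKM on 1486 and 1138 reads, a log2 ratio of -0.37 and a read ratio of 0.769 (0.711 to 0.831). Kpna4 was thus the most abundant adaptor transcript in the healthy library and Kpna2 in the leukemia library. Kpna1 (14.8 and 13.8 FPKM), Kpna3 (13.3 and 14.9 FPKM) and Kpna6 (9.23 and 9.19 FPKM) had intervals that spanned 1. The 5 adaptors summed to 108 and 123 FPKM, so the sum moved less than Kpna2 did. Cse1l, the exportin that returns importin alpha to the cytoplasm, was at 17.2 and 22.8 FPKM, a read ratio of 1.32 (1.18 to 1.48).

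Of the 11 importin beta family genes 1 was at least 1.5-fold higher (against 13.7% of all genes), and their median log2 ratio was 0.11. Ipo7, which imports ribosomal proteins and, with importin beta, histone H1, was at 20.1 and 31.5 FPKM, a log2 ratio of 0.62 and a read ratio of 1.52 (1.40 to 1.66). Its log2 ratio was 0.56 as TPM, under 1.5-fold. Ipo5, another importer of ribosomal proteins and histones, was at 26.6 and 40.4 FPKM, a read ratio of 1.51 (1.40 to 1.63). The histone importers Ipo4 and Ipo9 were nearer to even, at 9.70 and 10.5 FPKM and at 11.02 and 11.57 FPKM, with intervals that spanned 1. Importin beta itself, Kpnb1, was the most abundant member in both libraries, at 62.4 and 68.7 FPKM, a read ratio of 1.10 (1.05 to 1.15).

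The rest of the family lay between log2 ratios of -0.15 and 0.19. Tnpo1, the transportin that imports hnRNP proteins, was at 14.7 and 16.9 FPKM, with an interval of 1.07 to 1.25. Its paralog Tnpo2 was at 16.8 and 15.6 FPKM and Tnpo3, which imports SR splicing factors, at 25.5 and 26.4 FPKM. Ipo13 was at 7.65 and 8.63 FPKM and Ipo11 at 6.60 and 6.67 FPKM. Ipo8, the close paralog of Ipo7, was at 12.2 and 10.9 FPKM, a log2 ratio of -0.15 with an interval of 0.796 to 1.01. The intervals of the paralogs Ipo7 and Ipo8 therefore did not overlap.

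The 6 exportin members, which do not include Cse1l, were close to even: their median log2 ratio was -0.02 and they summed to 136 and 131 FPKM. None passed 1.5-fold (13.7% of all genes were 1.5-fold higher and 6.37% lower). Xpo1 (CRM1), the exporter of proteins with leucine-rich export signals and a target of cancer drugs, was at 41.9 and 43.3 FPKM on 1711 and 1733 reads. Its read ratio of 1.02 had a narrow interval, 0.95 to 1.09. Xpo6, which exports actin with profilin and was the most abundant exportin transcript in healthy cells, was at 49.2 and 43.0 FPKM, a read ratio of 0.862 (0.804 to 0.923). The transfer RNA exporter Xpot (10.4 and 11.5 FPKM), the microRNA precursor exporter Xpo5 (12.4 and 12.6 FPKM), Xpo4 (6.02 and 5.73 FPKM) and Xpo7 (15.8 and 14.6 FPKM) had intervals that spanned 1. Signs of members this close to 0 depend on the scaling: Xpo1, Xpo5, Ipo9, Ipo11 and Tnpo3 had log2 ratios below 0 as TPM.

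Of 43 other pore and transport genes listed by hand, 42 were listed in a library and 41 reached 1 FPKM. Their median log2 ratio was 0.15, and 11 were at least 1.5-fold higher (against 13.7% of all genes). Of the 41, 0 were 1.5-fold lower (against 6.37%) and 0 were 2-fold higher (against 6.55%). The count of 0 depends on the setting: with 0.1 FPKM added in place of 1, 4 genes (Nxt2, Ndc1, Thoc6 and Nxt1) were at least 2-fold higher, and it was 1 as TPM, 3 on TMM-scaled CPM and 11 when centred on T cell receptor signalling genes. Genes of the Ran cycle stood high among them. Ran itself was at 77.4 and 147 FPKM, a read ratio of 1.90 (1.79 to 2.02). Ranbp1, which helps turn over Ran-GTP outside the nucleus, was at 137 and 268 FPKM, a read ratio of 1.96 (1.82 to 2.12), and Rcc1, the chromatin-bound exchange factor that loads Ran with GTP, at 10.2 and 19.9 FPKM, a read ratio of 1.96 (1.65 to 2.33). All of these read ratios were above that of Rangap1, the activating protein of the Ran GTPase, at 39.3 and 48.6 FPKM (1.24, 1.14 to 1.34). Nutf2, which carries Ran back into the nucleus, was at 3.04 and 5.25 FPKM, and the Ran-binding protein Rangrf at 9.27 and 15.6 FPKM. Ranbp2, the large filament protein that docks Rangap1 at the pore, was at 21.0 and 19.9 FPKM with an interval of 0.887 to 1.01.

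Messenger RNA export genes of the list lay on both sides of even. Nxf1, the main export receptor, had the lowest log2 ratio of the list, -0.36, at 97.9 and 76.1 FPKM (read ratio 0.766, 0.722 to 0.813). Its cofactors Nxt1 and Nxt2 were at 20.7 and 42.0 FPKM and at 2.16 and 5.10 FPKM, with read ratios of 2.01 (1.68 to 2.42) and 2.38 (1.69 to 3.39). The receptor and its cofactors thus lay on opposite sides of 1 on the deposited scale, while Nxf1 stood at a log2 ratio of 0.08 when centred on T cell receptor signalling genes. The adaptor Alyref was at 51.4 and 94.99 FPKM (1.87, 1.68 to 2.10), and Thoc6, a subunit of the THO complex, was at 8.20 and 17.3 FPKM (2.11, 1.67 to 2.68). Other THO subunits went both ways. Thoc3 and Thoc7 had read ratios of 1.29 (1.12 to 1.49) and 1.33 (1.17 to 1.51), Thoc1 one of 1.08 (0.959 to 1.22), and Thoc2 and Thoc5 ratios of 0.920 (0.851 to 0.994) and 0.851 (0.759 to 0.953). Aaas, a pore protein tied to the membrane through Ndc1, was at 15.8 and 25.2 FPKM (1.60, 1.36 to 1.88).

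**Figure D3:**
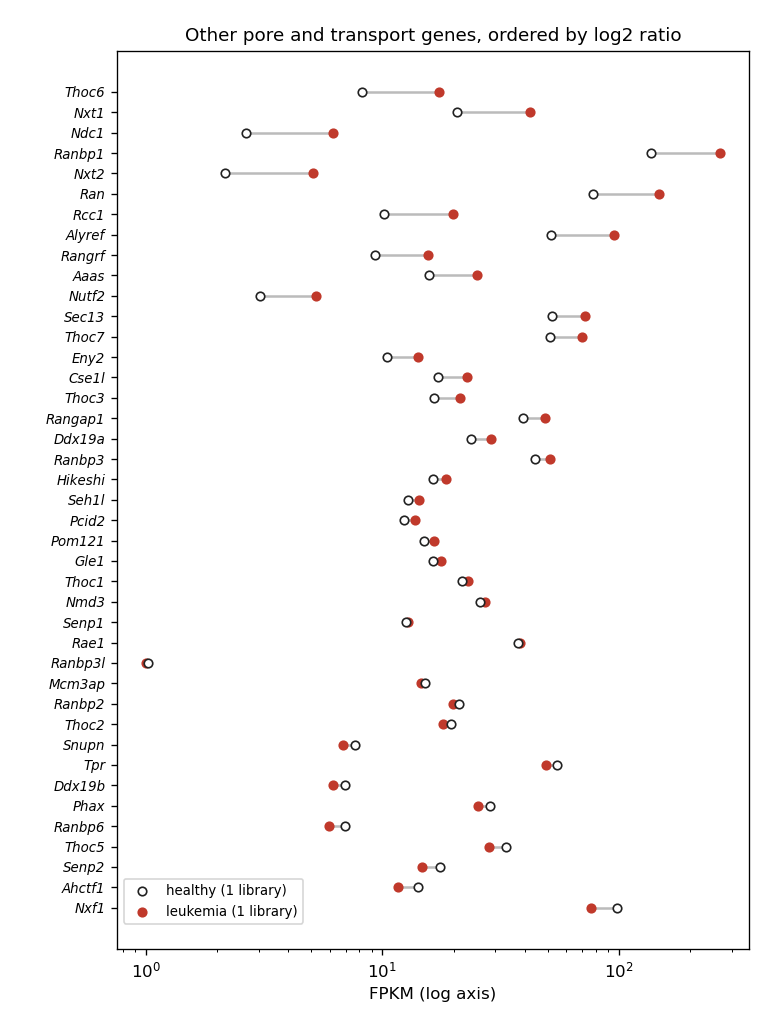
FPKM (log axis) of the 41 other pore and transport genes at 1 FPKM or more in the healthy (open) and leukemia (red) libraries, ordered by log2 ratio from Thoc6 at 0.99 to Nxf1 at -0.36. Ran and Ranbp1 are among the most abundant genes drawn and lie near the top of the order.

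Set beside other groups, the median log2 ratios of the members (0.14) and the separate list (0.15) lay between those of T cell signalling and cell division genes. So did the median of all genes (0.02), so this place is not particular to them. For T cell receptor signalling genes the median was -0.45 (0 of 21 higher and 6 lower at 1.5-fold). For mitosis and DNA replication genes it was 1.43 and 1.40 (24 of 24 and 25 of 28 higher at 1.5-fold). Of all genes, 13.7% were higher and 6.37% lower at that fold. No such group was tested against another. Centring both libraries on the T cell receptor signalling genes moved the median of all genes to 0.42 and that of the members to 0.56, and 17 members were then at least 1.5-fold higher, against 35.3% of all genes. That scaling shifts every gene upward, so that 85.5% of all genes lay above 0, and 40 of 41 members did. Kpna4 (0.07), Nup98 (0.20) and Xpo6 (0.25) were among these, and Nup153 stood at -0.03. Thus Nup153 and Kpna4 were lower relative to the deposited scale but near even relative to T cell genes.

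**Figure D4:**
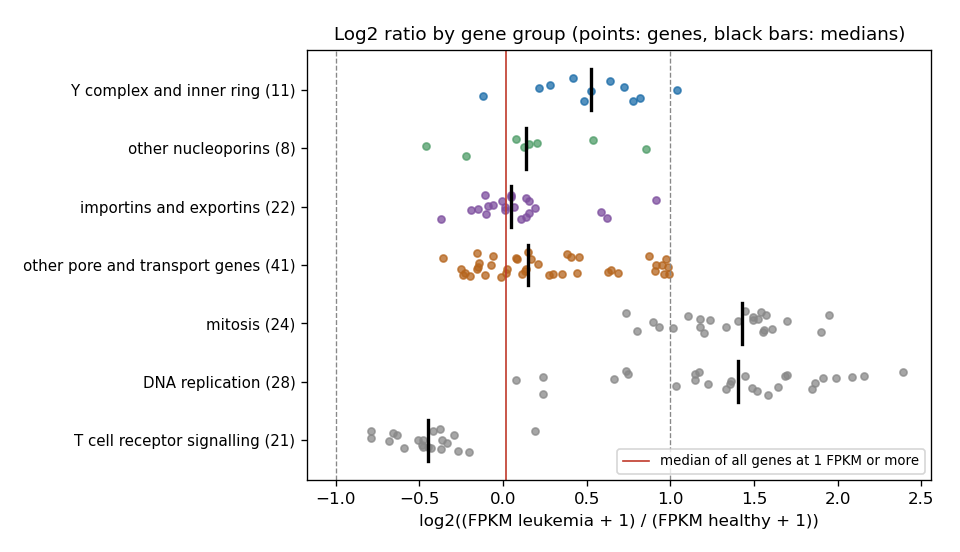
Log2 ratio of genes at 1 FPKM or more by group, with the number of genes in parentheses; points are genes, black bars medians, the red line the median of all genes (0.02) and the dashed lines 2-fold either way. The median of the 11 Y complex and inner ring genes is 0.53, that of the 22 importins and exportins 0.05, and mitosis and DNA replication genes lie further to the right.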

How the data were processed

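Gene expression was measured by RNA sequencing on a BGISEQ-500 instrument, per the labels' protocols, with samples grouped by the disease state in the labels. Bowtie2 2.2.5 and RSEM were used upstream, per the submitters' processing notes, which name no genome build. The authors deposited an expected count and an FPKM value per NCBI Gene ID, with a gene length, per the file headers. Expected counts need not be whole: 10 members had such values, including Nup62, Nup93, Nup133 and Ipo5, so part of their reads was shared out by estimate among genes.

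Of 23248 IDs, 21713 matched a RefSeq symbol (GRCm38.p6) by ID and 22 by accession. A gene listed in 1 table was taken as 0 in the other. Log2 ratios used FPKM with a pseudocount of 1, over genes that reached 1 FPKM in either table. Clopper-Pearson intervals (scipy 1.17.1) used counts rounded to whole numbers. They were run on simulated Poisson counts, the model they assume, so that run checks the calculation only. Members and gene lists were chosen with earlier results of these data known. Members past 1.5-fold, group extremes and members under 1 FPKM were to be named; the others are named for completeness. Alternatives were other pseudocounts, filters and scalings, with TMM from edgeR 4.0.16.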

Additional observations from a re-analysis of the deposited data

How the results depend on the processing

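With 1 library per group no replicate could be left out, and no paired analysis was possible because each group holds a single library. Compared first were a pseudocount of 0.1 FPKM, TPM, the median ratio, TMM-scaled CPM, leaving out other-cell genes and both filters. Under these the counts of members past 1.5-fold kept within 1.5 times: 7 to 9 members were 1.5-fold higher and 0 were 1.5-fold lower. The shares of all genes under these settings were 8.83% to 16.7% higher and 4.16% to 9.60% lower. The median log2 ratio of members was 0.07 to 0.15, inside a 95% interval of the main median taken over genes (0.05 to 0.28). That interval treats the member genes as independent and says nothing of variation between mice. Centring on T cell receptor signalling genes gave 9 members 2-fold higher (against 13.1% of all genes) and 17 members 1.5-fold higher (against 35.3%). The median was then 0.56 for members and 0.58 for other transport genes, while the median of all genes was 0.42. Scaling by the upper quartile, chosen after seeing the data, left 0 members 2-fold higher (against 5.99% of all genes) and 6 at 1.5-fold (against 11.9%). Nup133 was under 1.5-fold on TMM-scaled CPM (0.55), where counts are not divided by length. Of single members and other transport genes, 75 moved by more than their counting interval when centred and 9 did not, and none past 1.5-fold changed sign under any of these settings. Depth limits low members most: with 56 and 127 reads, Nup43 has an interval from 1.65 to 3.18.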
